A study of Mus musculus with 3 samples.

Results

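The 8 genes described here encode the receptors through which cells of an inflamed joint read immune complexes and activated complement. They are the Fc gamma receptors Fcgr1, Fcgr3, Fcgr4 and Fcgr2b, their signalling partner Fcer1g, the neonatal Fc receptor Fcgrt, and the anaphylatoxin receptors C3ar1 and C5ar1. They were chosen by name and not by a rule on their values, though with earlier results of these data known. They are 8 of the 32285 genes in the count tables. All 8 were found under their symbols. The cells came from mouse hind paws in K/BxN serum transfer arthritis, in which serum of arthritic K/BxN mice, injected into the peritoneum, brings autoantibodies that form immune complexes in the joint. The myeloid library held synovial leukocytes sorted at day 9 as CD45-positive, CD11b-positive and Ly6G-negative. The stromal day 0 library held CD45-negative cells at steady state, and the stromal day 5 library CD45-negative cells taken 5 days after serum. Strain, age, sex and the number of mice behind each library are not given in the sources used here. Fc block, an antibody reagent that occupies Fc receptors, was applied to the cells before staining, per the labels.

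Fcgr1, Fcgr3 and Fcgr4 encode the activating receptors Fc gamma RI, RIII and RIV, which bind the constant part of IgG. They signal through the Fc receptor gamma chain encoded by Fcer1g, whose immunoreceptor tyrosine-based activation motif (ITAM) is phosphorylated by Src-family kinases and then recruits Syk. Fcgr2b encodes the inhibitory receptor Fc gamma RIIB, whose own immunoreceptor tyrosine-based inhibition motif (ITIM) recruits the phosphatase SHIP1. Cells that carry both kinds respond to immune complexes according to their balance. Fcgrt encodes the heavy chain of FcRn, which binds IgG in acidic endosomes and returns it to the surface, so that it is not degraded. C3ar1 and C5ar1 encode G protein-coupled receptors for C3a and C5a, the fragments released when complement is activated. In this model Fc gamma receptors and the C5a receptor are known to be needed for arthritis.

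The motifs that set the activating and inhibitory arms apart are shown as the coding sequences of Fcer1g and Fcgr2b, read from the GENCODE mm10 transcripts. The capitals mark the codons of the motif tyrosines, which are codons 65 and 76 of Fcer1g and codon 319 of Fcgr2b. The letter pattern used for the ITIM also had 1 match in Fcgr1, Fcgr4, Fcer1g and a short Fcgrt transcript. A match alone thus does not mark an inhibitory receptor. The Fcer1g stretch crosses an intron and spans chr1:171229880-171230081, and the Fcgr2b stretch spans chr1:170961062-170961097, both on the minus strand.
Fcer1g ITAM: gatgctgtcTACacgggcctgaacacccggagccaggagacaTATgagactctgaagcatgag
Fcgr2b ITIM: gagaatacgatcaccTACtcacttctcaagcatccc

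The promoters of the 4 Fc gamma receptor genes are shown because the activating and inhibitory genes are compared throughout by their RNA levels. Each runs from 250 bases before to 50 bases after a transcription start, from RefSeq (GRCm38.p6). All 8 genes had an entry, and Fcgr3 had a pair of starts, of which 1 is printed. The capitals mark GAGGAA, a core letter string of sites of the myeloid factor PU.1, searched on both strands, and TTCNNNGAA, the interferon-gamma activated site, which reads the same on both strands. The pair of matches in the Fcgr1 window did not overlap. GAGGAA was present in the windows of Fcgr1, Fcgr3 and Fcgr4 and not in those of Fcgr2b, Fcer1g, Fcgrt, C3ar1 and C5ar1, and 28.3% of all 32851 promoter windows of this length held it. TTCNNNGAA was present in the window of Fcgr1 alone among the 8 genes, and 8.3% of all windows held it.
Fcgr1, chr3:96293920-96294219, strand minus: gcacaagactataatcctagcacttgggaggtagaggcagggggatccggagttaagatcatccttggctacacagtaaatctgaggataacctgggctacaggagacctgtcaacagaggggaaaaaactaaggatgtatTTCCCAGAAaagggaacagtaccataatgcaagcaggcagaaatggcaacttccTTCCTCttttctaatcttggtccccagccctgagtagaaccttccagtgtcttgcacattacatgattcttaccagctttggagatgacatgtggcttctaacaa
Fcgr4, chr1:171018676-171018975, strand plus: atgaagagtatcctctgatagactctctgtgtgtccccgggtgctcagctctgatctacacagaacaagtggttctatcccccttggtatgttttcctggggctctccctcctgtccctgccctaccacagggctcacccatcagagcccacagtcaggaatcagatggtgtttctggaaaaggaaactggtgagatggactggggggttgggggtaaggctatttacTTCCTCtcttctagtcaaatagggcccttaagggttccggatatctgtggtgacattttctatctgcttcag
Fcgr3, chr1:171059354-171059653, strand minus: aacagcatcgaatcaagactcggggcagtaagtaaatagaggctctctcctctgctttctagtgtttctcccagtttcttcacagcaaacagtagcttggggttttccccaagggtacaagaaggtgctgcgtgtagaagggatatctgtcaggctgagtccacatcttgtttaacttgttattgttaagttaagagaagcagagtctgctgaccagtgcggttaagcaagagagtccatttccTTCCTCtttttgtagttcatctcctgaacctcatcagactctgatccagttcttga
Fcgr2b, chr1:170976022-170976321, strand minus: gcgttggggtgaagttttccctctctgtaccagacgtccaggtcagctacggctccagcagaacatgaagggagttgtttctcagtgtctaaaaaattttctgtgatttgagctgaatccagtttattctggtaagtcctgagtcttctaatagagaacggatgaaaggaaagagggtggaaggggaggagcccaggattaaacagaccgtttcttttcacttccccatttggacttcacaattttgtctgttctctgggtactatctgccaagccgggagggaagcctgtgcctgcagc

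On mm10, Fcgr2b (chr1:170958617-170976547), Fcgr4 (chr1:171018920-171029761), Fcgr3 (chr1:171051174-171064935) and Fcer1g (chr1:171229572-171234365) lie near each other on chromosome 1. Fcgr1 lies at chr3:96282909-96293969, C3ar1 at chr6:122847138-122856161, C5ar1 at chr7:16246743-16259540 and Fcgrt at chr7:45092990-45103851. Fcgr2b and Fcgr3 are close relatives: 64 stretches of 90 bases were identical between their transcripts, 3.93% of those of Fcgr3, and none of these lay in the last 500 bases, where 3-prime reads gather. No other pair of the 4 Fc gamma receptor genes shared such a stretch. Antisense genes overlap Fcgr2b (Gm38204) and Fcgrt (Gm45669), and whether counting used strand is not given in the sources used here. Gm38204 had 1 UMI in the 3 libraries together, and Gm45669 had 1, 9 and 28 UMIs in the myeloid, day 0 and day 5 libraries.

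After filtering, 5945 myeloid cells, 7368 day 0 and 11172 day 5 stromal cells remained, with median UMI counts (unique molecular identifiers, each a captured RNA molecule) of 6741, 9802 and 9303.5. The library pairs shared between 14 and 25 cell barcodes. Each group is 1 library, so no test was possible and no p-value is given, and the 95% intervals below cover counting error only. The sort markers matched the labels: Ptprc, which encodes CD45, was at 453 CPM (UMIs per 1000000) in the myeloid library and at 0.026 and 0.0994 CPM in the stromal ones, Itgam (CD11b) was at 283 CPM in the myeloid library, and Ly6g had UMIs in 0.320% of its cells. Myeloid cells were gated one by one on marker genes that include no receptor described here, and the names rest on RNA alone. The 14 classes with at least 50 cells held 5021 cells (84.5%), and 851 cells could not be gated. The classes are called Ly6c2 monocyte, Arg1, Il1b, Vsig4 lining, Retnla interstitial and MHC class II macrophage, interferon-response myeloid, other macrophage (general macrophage markers, no class by the rule), conventional dendritic 2, migratory dendritic, osteoclast, neutrophil, T and NK, all in the sense of "like". Other macrophages often held markers of named classes too: 96.6% had a UMI of the MHC class II macrophage markers and 92.6% of the Arg1 macrophage markers. The 89 neutrophil-like cells were led by Camp, Ngp, Ltf and Elane, genes of immature granulocytes. Among the ungated and other macrophage cells, 804 scored for a class that led the runner-up by less than the margin set, and were not given that class. The sort left out Ly6G-positive cells, yet the 6 neutrophil markers summed to 3872 CPM over the myeloid library, and their part in the results was not tested beyond leaving out cells with S100a8, S100a9 or Col1a1 UMIs, which left 3419 cells.

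Across whole libraries, 7 of the 8 receptor genes were far higher in the myeloid cells than in the stroma. The myeloid library held 104 CPM of Fcgr1 (6397 UMIs), 119 of Fcgr3, 23.4 of Fcgr4, 1462 of Fcer1g, 203 of Fcgr2b, 211 of C3ar1 and 146 of C5ar1. In the stromal libraries each of these 7 genes was at 0 to 0.563 CPM, with 0 to 23 UMIs at day 0 and 1 to 68 UMIs at day 5. The 7 genes were at least 10-fold higher in the myeloid library than in either stromal library, as were 9.00% and 8.25% of all genes against day 0 and day 5. No receptor gene was at least 10-fold lower, as were 15.3% and 16.0% of all genes. Both comparisons share the myeloid library. The smallest of these folds was 565 for Fcgr4 against day 5 (95% interval 241 to 1742). Fcgr1 had 0 UMIs at day 0, which makes it at least 2676-fold higher, with 3 counts as the limit over the library, and 1 UMI at day 5. Fcgrt went the other way, at 70.1 CPM in the myeloid cells against 254 and 241 CPM in the stroma. The libraries differ in sort and day together, so the effects of the sort and of the day cannot be told apart.

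**Figure D1:**
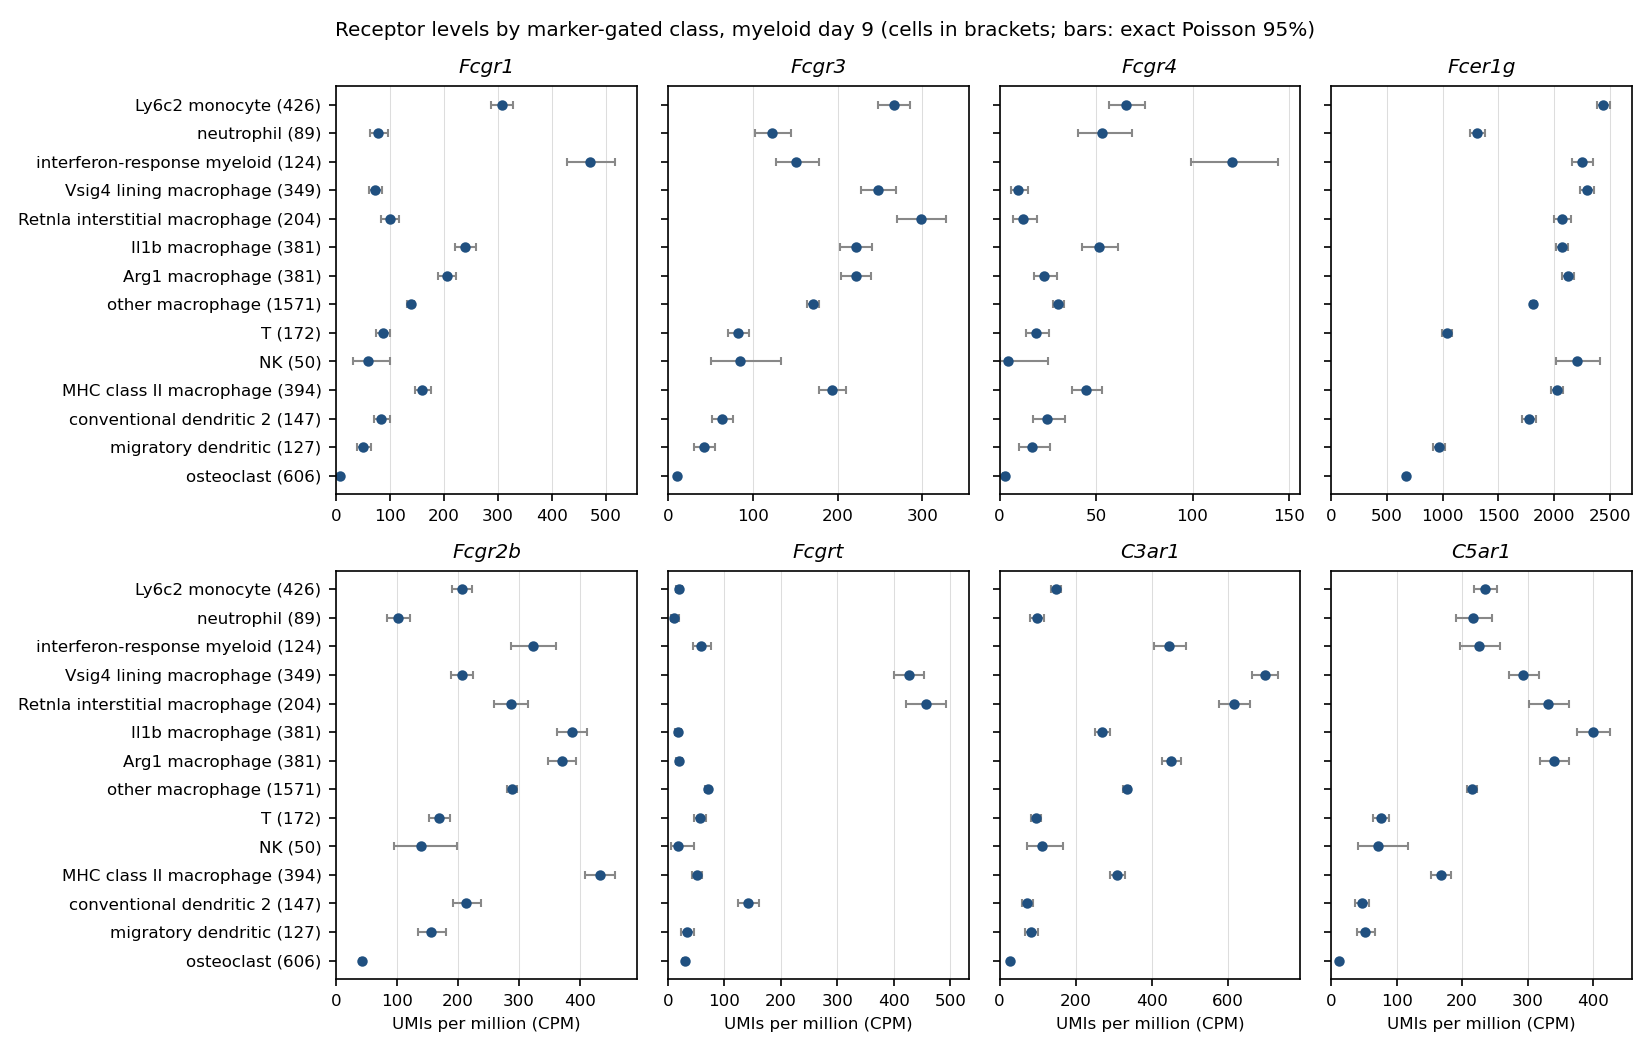
CPM of the 8 receptor genes (x axes, each on its own scale from 0) in the 14 gated classes of the myeloid day 9 library (y axis, cell numbers in brackets), with exact Poisson 95% intervals. Fcgr1 and Fcgr4 peak in the interferon-response class, Fcgrt in the Retnla and Vsig4 classes, and the osteoclast class is lowest for 7 of the 8 genes.

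The 3 activating receptors did not share 1 order over the classes, as the plot of levels by class shows. Fcgr1, which encodes the high-affinity receptor, was highest in the interferon-response class, at 471 CPM (429 to 516), followed by Ly6c2 monocytes at 307 CPM (287 to 328), Il1b macrophages at 240 CPM and Arg1 macrophages at 205 CPM. It was at 72.4 CPM (61.8 to 84.3) in Vsig4 lining macrophages and at 99.5 CPM in Retnla macrophages, which are classes of tissue-resident type. The lowest level was 7.67 CPM in osteoclasts. Fcgr1 in the interferon-response class was 4.79-fold its level in all other cells (4.34 to 5.27), and in monocytes 3.26-fold.

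Fcgr4 encodes a receptor for IgG2a and IgG2b and had an order like that of Fcgr1 at its upper end. It was highest in the interferon-response class at 120 CPM (99.4 to 144), then in monocytes at 65.6 CPM (56.7 to 75.6), neutrophils at 53.3 CPM and Il1b macrophages at 51.5 CPM. The intervals of these last 3 overlapped their neighbours. In Vsig4 lining macrophages it was at 9.6 CPM (22 UMIs) and in Retnla macrophages at 12 CPM (17 UMIs).

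Fcgr3 encodes the low-affinity activating receptor and was high in monocytes, as Fcgr1 and Fcgr4 were, but also in the Retnla and Vsig4 classes. Retnla interstitial macrophages had 298 CPM (271 to 328), monocytes 266 CPM (248 to 285) and Vsig4 lining macrophages 248 CPM (228 to 269). The interferon-response class, first for Fcgr1 and Fcgr4, had 151 CPM (128 to 178). The Fcgr1 to Fcgr3 ratio of UMIs was 3.11 in the interferon-response class (2.58 to 3.77) and 0.292 in Vsig4 lining macrophages (0.244 to 0.348), and the Fcgr4 to Fcgr3 ratio was 0.795 and 0.0387. These ratios compare classes only, since UMIs of different genes are not captured alike.

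Fcer1g, the chain that the activating receptors share, varied least of the 8 genes over the classes, by 3.63-fold from lowest to highest. It was at 2442 CPM in monocytes (2385 to 2499), between 1812 and 2292 CPM in the 7 other monocyte and macrophage classes, the interferon-response class included, and at 674 CPM in osteoclasts (661 to 686). NK cells, in which the chain also pairs with Fc gamma RIII and other receptors, had 2205 CPM (2014 to 2409). Osteoclasts had 31.5 Fcer1g UMIs for each UMI of an activating receptor (28.5 to 35.1), against 3.82 in monocytes and 3.03 in the interferon-response class. In osteoclasts Fcer1g was 2.64-fold lower than in the other cells, where Fcgr1 was 18.6-fold and Fcgr3 14.8-fold lower.

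Fcgr2b, the inhibitory receptor, was highest in MHC class II macrophages, at 433 CPM (409 to 457). Il1b macrophages had 387 CPM and Arg1 macrophages 370 CPM, and each overlapped its neighbour in the order. Monocytes and Vsig4 lining macrophages had 206 CPM each (190 to 223 and 188 to 225). Neutrophils had 101 CPM (83.3 to 122) and osteoclasts 42 CPM (39 to 45.1). In cells thinned to 2000 UMIs, 50.4% of MHC class II macrophages and 31.7% of monocytes had a Fcgr2b UMI, against 80.5% and 60.6% without thinning.

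Each class was also set against all other cells of the library, with the share of all genes as far apart given in brackets. For every class but osteoclasts, these other cells include the osteoclasts, which hold 17471942 of the 61376205 UMIs kept. Osteoclasts were lowest for most of the 8 genes, so folds of other classes against the rest depend in part on them. Folds with osteoclasts left out of the rest were not computed. Monocytes were at least 2-fold higher for Fcgr1, Fcgr3 and Fcgr4 (6.07% of genes) and lower for Fcgrt (26.8%). The interferon-response class was higher for Fcgr1, Fcgr4 and C3ar1 (7.12%) and lower for none (22.5%). Il1b macrophages were higher for Fcgr1, Fcgr4 and C5ar1 (4.66%) and lower for Fcgrt (29.3%), and Arg1 macrophages were higher for Fcgr1, C3ar1 and C5ar1 (4.66%) and lower for Fcgrt (21.2%). Vsig4 lining macrophages were higher for Fcgr3, Fcgrt, C3ar1 and C5ar1 (12.1%) and lower for Fcgr4 (20.2%). Retnla interstitial macrophages were higher for the same 4 genes (12.0%) and lower for none (20.3%). MHC class II macrophages were higher for Fcgr2b and Fcgr4 (3.47%) and lower for none (18.3%), and other macrophages were 2-fold apart for none of the 8 (1.28% higher, 7.34% lower).

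In the remaining classes the count of lower receptor genes was near the share of all genes, other than in osteoclasts and migratory dendritic cells. Conventional dendritic 2 cells were at least 2-fold higher for Fcgrt (7.87%) and lower for C3ar1 and C5ar1 (22.5%). Migratory dendritic cells were higher for none (11.2%) and lower for Fcgr1, Fcgr3, Fcgrt, C3ar1 and C5ar1 (27.7%). Neutrophils were higher for Fcgr4 (9.42%) and lower for Fcgr2b, Fcgrt and C3ar1 (37.4%). NK cells were higher for none (14.5%) and lower for Fcgr4, Fcgrt and C5ar1 (37.5%), and T cells were higher for none (11.5%) and lower for C3ar1 (15.2%). Osteoclasts were higher for none (9.05%) and at least 2-fold lower for all 8 genes (25.8%). The osteoclast class had a median of 26150 UMIs per cell, and 100 of its 606 cells carried cell cycle markers.

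The activating to inhibitory ratio, the summed UMIs of Fcgr1, Fcgr3 and Fcgr4 over those of Fcgr2b, was 1.22 (1.19 to 1.25) over all myeloid cells. It was highest in Ly6c2 monocytes, at 3.1 (2.83 to 3.41). Neutrophils followed at 2.51 (2.01 to 3.15) and the interferon-response class at 2.30 (2.01 to 2.64). Vsig4 lining macrophages had 1.60 (1.43 to 1.80), Retnla macrophages 1.43 (1.26 to 1.63), Il1b macrophages 1.33 (1.22 to 1.44) and Arg1 macrophages 1.21 (1.12 to 1.32). Other macrophages had 1.18, T cells 1.11 and NK cells 1.06. Of the NK class, 7 cells that also had at least 3 of 5 general macrophage markers held all 31 Fcgr2b UMIs. Of the T class, 83 such cells held 288 of the 367. Below 1 were MHC class II macrophages at 0.920 (0.849 to 0.998), conventional dendritic 2 cells at 0.807 (0.685 to 0.949), migratory dendritic cells at 0.701 (0.555 to 0.883) and osteoclasts at 0.509 (0.448 to 0.577). The intervals of 12 of the 13 neighbouring pairs in this order overlapped, so neighbours in it are not told apart. With Leiden clusters in place of gates, Il1b macrophages had 2.41, MHC class II macrophages 1.03 and conventional dendritic 2 cells 0.487. The Il1b cluster had the monocyte gate markers Plac8 and Vcan among its leading genes. The 1.03 pools a cluster at 0.866 (0.797 to 0.941) with another at 1.22 (1.12 to 1.32). Leading genes of the latter included Ifitm1, Il1r2, Klrd1 and H2-Oa, as did those of the conventional dendritic cluster. With thinned cells conventional dendritic 2 cells had 1.06. Whether MHC class II macrophages and conventional dendritic 2 cells lie below 1 thus depends on the setting and on which cells bear the name. After removal of the barcodes with the highest Scrublet scores osteoclasts had 0.270 and migratory dendritic cells 0.419, and the latter had 0.148 with thinned cells and 0.444 with the mean of per-cell CPM, where NK cells had 1.92.

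**Figure D2:**
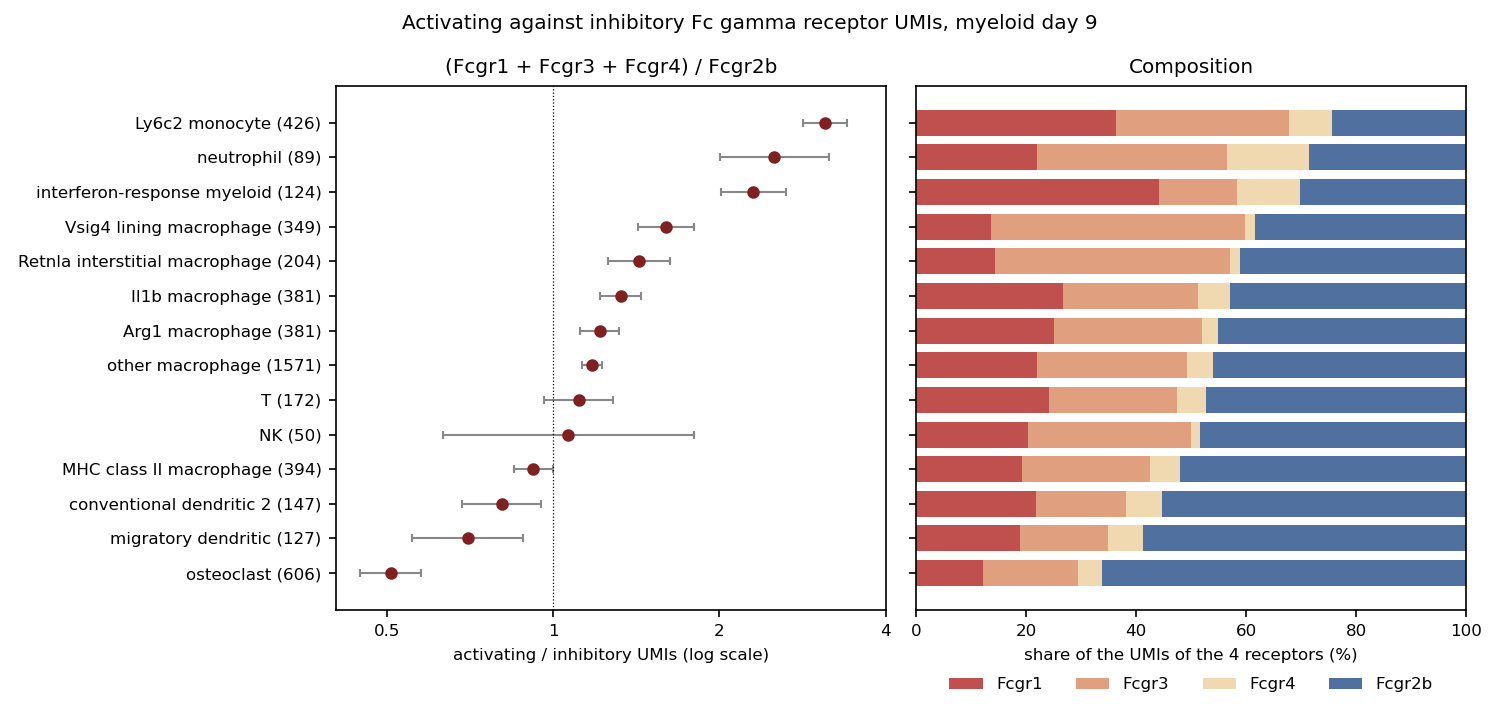
Left, the ratio of activating to inhibitory Fc gamma receptor UMIs (log axis, exact 95% intervals, dotted line at 1) in each gated class of the myeloid day 9 library. Right, the share of each receptor in the UMIs of the 4 receptors, from 0 to 100%. Ly6c2 monocytes are highest at 3.1 and osteoclasts lowest at 0.509.

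The distance between monocytes and MHC class II macrophages came from both arms. Summed activating UMIs were 639 CPM in monocytes (610 to 669) and 398 CPM in MHC class II macrophages (375 to 422), a fold of 1.60. Fcgr2b was 2.10-fold higher in MHC class II macrophages than in monocytes. The ratio was 3.37-fold higher in monocytes (2.99 to 3.81). Among the 7 monocyte and macrophage classes with their own markers, monocytes were highest and MHC class II macrophages lowest under the main gates and all 8 other ways of filtering, gating and weighting cells, with a fold between 3.00 and 3.60. The clusters held 6 of these 7 classes, and clusters without a class name were not ranked. Of the unnamed clusters, the one led by Mmp12 and Cxcl3 had a ratio of 0.641 (0.579 to 0.709). That is below the 1.03 of the pooled MHC class II macrophage clusters. The unnamed cluster led by Retnla and Mgl2 had 0.917, with an interval that held 1.03. The remaining unnamed clusters had ratios above 1.03, though the one led by Hbb-bs and Hba-a1, at 1.04 (0.892 to 1.21), had an interval that held 1.03. MHC class II macrophages were thus lowest among the named classes only. Against Vsig4 lining macrophages the arms differed: Fcgr2b was level with monocytes (fold 1.00, 0.885 to 1.13) and the activating sum was 1.94-fold higher in monocytes. The interferon-response class had the highest activating sum, 743 CPM, and more Fcgr2b than monocytes, 323 against 206 CPM.

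The make-up of the receptor UMIs also differed between classes. Of the UMIs of the 4 receptors, Fcgr1 made up 44.2% in the interferon-response class, 36.4% in monocytes, 13.5% in Vsig4 lining macrophages and 14.3% in Retnla macrophages. Fcgr3 made up 46.3% in Vsig4 lining macrophages and 42.9% in Retnla macrophages, against 14.2% in the interferon-response class. Fcgr4 made up 15.0% in neutrophils (59 UMIs) and 1.79% in Vsig4 lining macrophages. Fcgr2b made up 66.3% in osteoclasts and 24.4% in monocytes. Taken singly over Fcgr2b, Fcgr1 and Fcgr3 gave the same end classes as the sum, monocytes and osteoclasts, and Fcgr4 gave neutrophils and NK cells, the latter with 1 UMI of Fcgr4.

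Detection in single cells was counted after thinning, at which depth a missing UMI does not show that a cell lacks the RNA: Fcgr2b was found in 31.7% of thinned and 60.6% of unthinned monocytes. In monocytes, 44.6% of 410 cells had a UMI of an activating receptor and none of Fcgr2b, and 9.02% had the reverse. In MHC class II macrophages the shares were 24.3% and 22.4% of 371 cells. In the interferon-response class, 42.2% of 116 cells had both kinds (33.1 to 51.8%), against 22.7% of monocytes. Among migratory dendritic cells, 3 of 122 had an activating receptor UMI and 19 had Fcgr2b only.

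T cells should lack most of these receptors, and their values give the level at which RNA of other cells must be allowed for. Thinned, 14.0% of T-gated cells had a UMI of Fcgr1, 15.2% of Fcgr3, 24.0% of Fcgr2b, 12.3% of C3ar1, 16.4% of C5ar1 and 67.8% of Fcer1g, with a median of 9827 UMIs per cell before thinning. Shares at or below these are not told apart here from RNA of other cells. For Fcgr2b that covers osteoclasts, NK cells, neutrophils and both dendritic classes, so the ratios of these classes may rest in part on such RNA. For C3ar1, C5ar1 and Fcgr3 it covers osteoclasts, NK cells and both dendritic classes, for Fcgr1 osteoclasts, NK cells, migratory dendritic cells and Vsig4 macrophages, and for Fcgr4 the same classes and Retnla macrophages. Of the 172 T-gated cells, 83 also had at least 3 of 5 general macrophage markers. In these, Fcgr3 was at 126 CPM, C5ar1 at 120 CPM and Fcgr2b at 224 CPM, and in the other 89 cells at 20.4, 10.2 and 89.6 CPM. The shares of all T-gated cells may thus lie above the level of stray RNA in other classes. The part of barcodes that hold more than 1 cell was not tested.

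The same split, chosen after seeing the data, moved the low end of the ratio. Among osteoclasts with fewer than 3 general macrophage markers (283 cells), the activating receptors had 24 UMIs in 7472237 and Fcgr2b had 195, a ratio of 0.123 (0.0770 to 0.189). In the 323 with at least 3 it was 0.649. Migratory dendritic cells with fewer than 3 (101 cells) had 10 activating and 55 Fcgr2b UMIs, a ratio of 0.182 (0.0826 to 0.360), against 0.922 in the other 26. With Leiden clusters in place of gates, the migratory dendritic cluster had 0.143 and 0 UMIs of Fcgr4, and the conventional dendritic cluster had Fcgr2b at 203 CPM beside 17 CPM of Fcgr3 and 6.6 CPM of C5ar1. NK cells with fewer than 3 markers (43 cells) had 0 UMIs of Fcgr2b and 4 of Fcgr3.

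Depth went with the ratio in several classes. In the shallower and deeper cells of each class, split at its median UMI count, the ratio was 1.21 and 0.831 in MHC class II macrophages, 1.62 and 1.24 in Il1b macrophages, 1.5 and 1.13 in Arg1 macrophages, and 3.20 and 3.06 in monocytes. The widest split was in migratory dendritic cells, 0.087 (0.00994 to 0.352) and 0.789, and in osteoclasts it was 0.241 and 0.647. Monocytes were above MHC class II macrophages in both parts. The part of depth in these differences was not tested.

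Fcgrt, which encodes the FcRn heavy chain, set the tissue-resident type classes apart from all others. Retnla interstitial macrophages had 456 CPM (422 to 493) and Vsig4 lining macrophages 426 CPM (400 to 454), each about as far above the rest of the library (7.48-fold and 7.57-fold). Conventional dendritic 2 cells had 142 CPM (124 to 162). Monocytes, Arg1 macrophages and Il1b macrophages had 19.9, 19.5 and 17.6 CPM, with intervals that overlapped, and shares under the 11.1% of T cells. Thinned, 58.0% of Retnla and 57.5% of Vsig4 macrophages had a UMI of Fcgrt, against 3.17% of monocytes. B2m, which encodes the light chain that FcRn needs, was at 1788 CPM in monocytes and 1243 CPM in osteoclasts.

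In the stroma Fcgrt was the only receptor gene of the 8 found widely. It was at 254 CPM at day 0 (251 to 258) and 241 CPM at day 5 (238 to 244), a ratio of 0.947 (0.930 to 0.964), where 9.41% of all genes were at least 1.5-fold higher and 8.82% lower. Fibroblasts went from 265 to 251 CPM, tenocytes from 205 to 196 CPM and osteoblasts from 219 to 220 CPM. Endothelial cells, in which FcRn is known to keep IgG in the circulation, had 230 CPM at day 0 (200 to 262, 105 cells) and 124 CPM at day 5 (104 to 146, 71 cells), a ratio of 0.538 (0.432 to 0.668). The share of endothelial cells with a Fcgrt UMI was 70.5% and 71.8%, and 34.0% (24.9 to 44.0%) and 27.5% (17.5 to 39.6%) when thinned, with intervals that overlapped. The ratio in CPM was the only one of a stromal class of at least 50 cells beyond 1.5-fold, and with 1 library a day it has no replicate check. The share of all genes as far apart within endothelial cells was not computed.

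**Figure D3:**
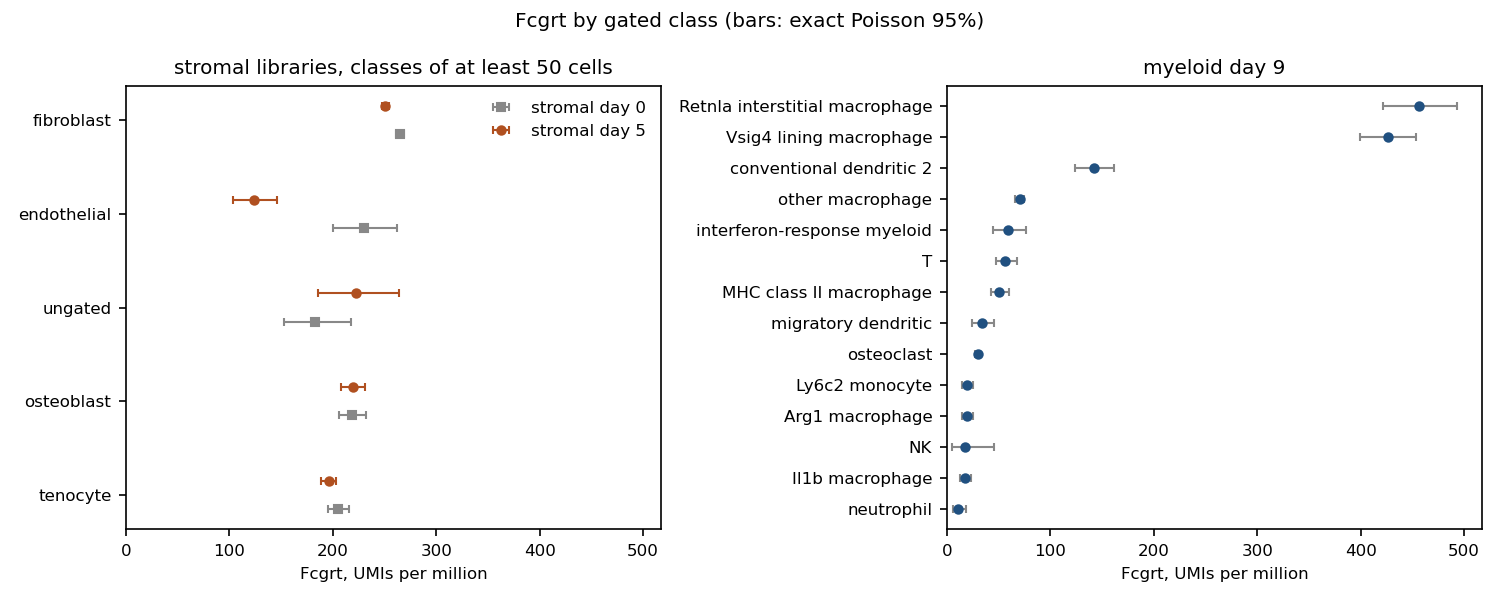
CPM of Fcgrt (x axes from 0, exact Poisson 95% intervals) in the stromal classes of at least 50 cells at day 0 (grey squares) and day 5 (orange circles), left, and in the 14 myeloid day 9 classes, right. Fibroblasts are at 265 and 251, endothelial cells at 230 and 124, and Retnla and Vsig4 macrophages at 456 and 426.

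The other 7 genes were near 0 in the stroma at both times. Fcgr2b had 2 UMIs at day 0 and 27 at day 5, of which 12 lay in fibroblasts and 12 in tenocytes, a ratio in CPM of 8.61 with an interval from 2.16 to 74.7. The fibroblast UMIs lay in 5 of 9229 cells and the tenocyte UMIs in 5 of 1160, and the interval treats UMIs of 1 cell as independent. Fcer1g had 23 and 68 UMIs, or 46 at day 5 without the 3 cells gated as leukocytes, and C5ar1 had 18 and 20, or 10 at day 5 without them. C3ar1 had 18 and 12 UMIs. The day 5 library is deeper, and without these 3 cells the ratio in CPM was 1.28 (0.758 to 2.21) for Fcer1g. It was 0.354 (0.146 to 0.810) for C5ar1 and 0.425 (0.187 to 0.933) for C3ar1, with the same limit of the intervals. No day 0 cell was gated as a leukocyte.

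C3ar1 and C5ar1, the receptors for C3a and C5a, overlapped in the classes that carried them but were weighted differently. C3ar1 was highest in Vsig4 lining macrophages at 697 CPM (663 to 732) and Retnla macrophages at 617 CPM (576 to 659), then in Arg1 macrophages at 451 CPM and the interferon-response class at 446 CPM. Monocytes had 148 CPM (134 to 163). C5ar1 was highest in Il1b macrophages at 399 CPM (375 to 425), with Arg1 macrophages at 341 CPM, Retnla macrophages at 332 CPM and Vsig4 lining macrophages at 294 CPM. Monocytes had 235 CPM (217 to 253), neutrophils 217 CPM and osteoclasts 12 CPM. Conventional dendritic 2 cells had 72.4 CPM of C3ar1 and 46.3 CPM of C5ar1.

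The C5ar1 to C3ar1 ratio was 0.692 over all myeloid cells (0.674 to 0.711). It was above 1 in 3 classes: neutrophils at 2.22 (1.76 to 2.82), monocytes at 1.58 (1.40 to 1.79) and Il1b macrophages at 1.48 (1.34 to 1.64). The next class was T cells at 0.792. It was lowest in Vsig4 lining macrophages at 0.421 (0.384 to 0.461) and osteoclasts at 0.430 (0.364 to 0.507), whose intervals overlapped. Which class was lowest changed with the processing: it was osteoclast in 6 of the alternatives, migratory dendritic with the stricter cell filter and without cells that held S100a8, S100a9 or Col1a1 UMIs, and Vsig4 lining with the looser filter. Neutrophils were highest other than with thinned cells, where Il1b macrophages were, and without cells holding S100a8, S100a9 or Col1a1 UMIs, where monocytes were. The latter setting removes cells by markers of the neutrophil gate, and no neutrophil class was left to compare. Only classes with at least 20 C3ar1 UMIs were ranked, and thinned neutrophils had C3ar1 in 12 of 80 cells and C5ar1 in 31. Thinned, 32.5% of Vsig4 macrophages had UMIs of both C3ar1 and C5ar1, against 11.5% of monocytes and 3.51% of T cells.

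**Figure D4:**
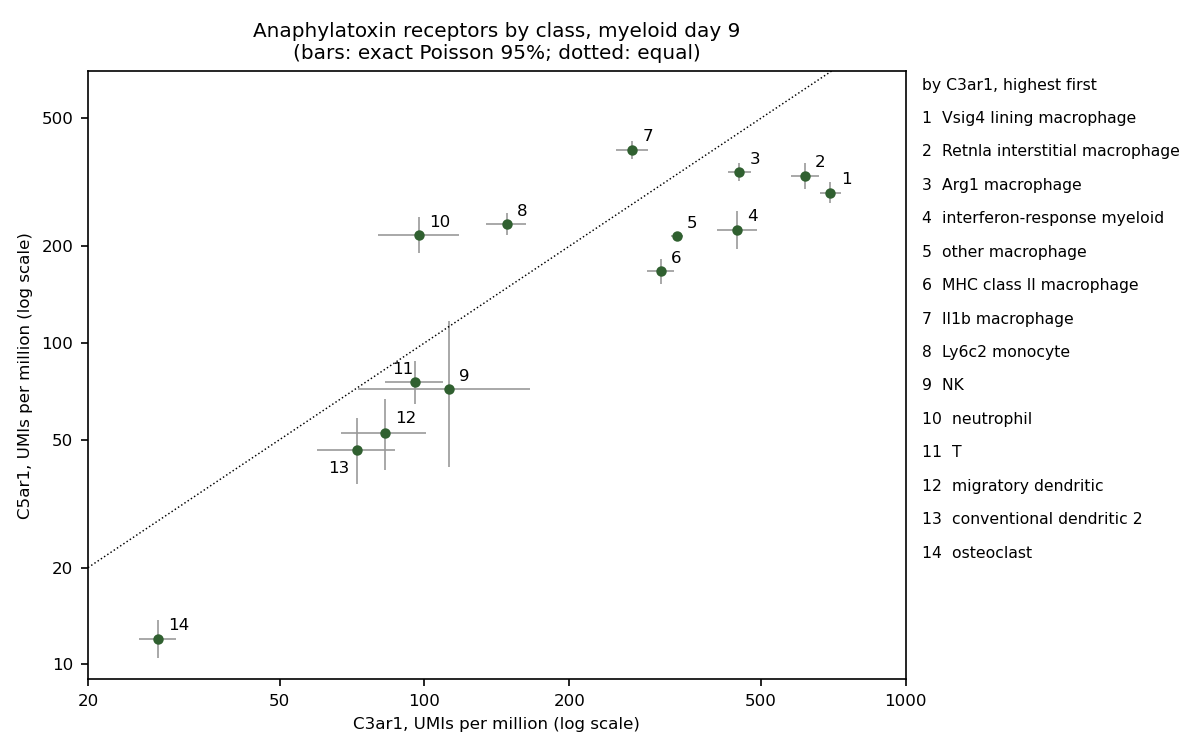
C5ar1 against C3ar1 in CPM (log axes, exact Poisson 95% intervals) in the 14 gated classes of the myeloid day 9 library, numbered by C3ar1 level. The dotted line marks equal levels, and Il1b macrophages (7), monocytes (8) and neutrophils (10) lie above it, at ratios of 1.48, 1.58 and 2.22.

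The genes that carry these signals were compared between the end classes of the Fc ratio, monocytes and osteoclasts, where 17.5% of 11314 genes were at least 2-fold higher in monocytes and 24.8% lower, with a median log2 fold of -0.14. Of 13 ITAM kinases and effectors, 9 were higher and 0 lower (median log2 1.61). They included the Src-family kinases Fgr (213 against 20.6 CPM) and Lyn (434 against 92.1 CPM), Pik3cd (126 against 23.8 CPM) and the phospholipase gene Plcg2 (103 against 33.8 CPM), while Syk was at 193 and 120 CPM. Of 9 inhibitory phosphatases and adaptors, 6 were higher and 1 lower (median 1.25), among them the ITIM receptor genes Lilrb4a (540 against 36.9 CPM) and Pirb (356 against 103 CPM), Ptpn6, which encodes SHP-1 (283 against 119 CPM), and the ubiquitin ligase gene Cbl (187 against 56.1 CPM). Of 7 genes, Tyrobp itself and partner receptors of Fcer1g or Tyrobp, 5 were higher and 0 lower (median 4.00). Among the higher were Trem1 (149 against 3.09 CPM) and the C-type lectin genes Clec4e (634 against 19.5 CPM), Clec4d (296 against 18.5 CPM) and Clec4n (125 against 18.4 CPM). Tyrobp was at 2760 and 1772 CPM.

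On the complement side, 7 of 9 anaphylatoxin signalling genes were at least 2-fold higher in monocytes and 0 lower (median 1.82). They included the regulators of G protein signalling Rgs1 (202 against 29.1 CPM) and Rgs2 (569 against 113 CPM), the receptor kinase gene Grk2 (246 against 82.6 CPM), the arrestin gene Arrb2 (86.9 against 24.6 CPM) and Pik3cg (50.9 against 13.3 CPM). Of 8 precursors and proteases, 5 were higher and 1 lower (median 1.78), with C3 itself at 269 against 6.24 CPM and Cfp, which encodes properdin, at 252 against 73.4 CPM. Of 7 other complement receptors, 3 were higher and 1 lower: Cd93 (152 against 7.73 CPM) and Itgam (484 against 95.4 CPM) were higher, and C1qbp, which encodes a mitochondrial protein, was lower (36.8 against 284 CPM). The remaining lists did not lean to monocytes. Of 2 complement regulators, 1 was higher and 1 lower (median -1.17). Of 3 other Fc receptors, 0 were higher and 1 lower (median 0.13), and the 1 FcRn partner compared was neither.

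Most of those genes were not apart between monocytes and MHC class II macrophages, a pair chosen after the values were seen. There, 5.71% of 9449 genes were at least 2-fold higher in monocytes and 9.70% lower, with a median log2 fold of -0.08. None of the 13 ITAM kinases and effectors (median 0.16) and none of the 9 inhibitory phosphatases and adaptors (median 0.23) was 2-fold apart: Syk was at 193 and 185 CPM, Lyn at 434 and 270 CPM, and Inpp5d, which encodes SHIP1, at 177 and 210 CPM. Of the 7 precursors and proteases, 2 were higher in monocytes and 4 lower, and the lower ones included the C1q genes C1qa (124 against 1971 CPM), C1qb (146 against 1973 CPM) and C1qc (63.9 against 923 CPM). Among partner receptors, Trem1, Trem3 and Clec4e were higher in monocytes and Clec4n and Trem2 lower.

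Genes whose log2 levels over the 14 classes were most like those of each receptor are given as a description over classes of 1 library, which differ in depth and share free RNA. Among 5161 genes ranked, Fcgr1 was most like Ccl2 (r = 0.95), Mpeg1 (0.94) and Ifi204 (0.93), and Fcgr4 was close to Oas3 (0.89) and Oas2 (0.89). Fcgr3 was most like Cd300ld (0.95), Lamp2 (0.94) and Itgam (0.93), and Fcgr2b most like the protease genes Ctss (0.95) and Ctsc (0.93) and Cd300c2 (0.92). Fcer1g was most like Tifa (0.92), Xdh (0.91) and Scarb2 (0.89). Fcgrt was most like Gpr155 (0.97), Fgfr1 (0.96) and Wasf2 (0.95), C3ar1 most like Sash1 (0.98), Grn (0.97) and Lgmn (0.96), and C5ar1 most like Cd300ld (0.92), Rbms1 (0.92) and App (0.92). Between the receptors themselves, r was 0.95 for Fcgr3 and C5ar1, 0.84 for Fcgr1 and Fcgr4, 0.47 for Fcgr3 and Fcgr4, and -0.08 for Fcgr1 and Fcgrt.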

How the data were processed

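Single-cell 3-prime RNA sequencing (10x Genomics) was done on 3 sorted mouse hind paw samples, 1 library per group. Per the file headers, the authors made the deposited counts (UMIs per gene and barcode) with Cell Ranger 6.0.1, with the 10x mm10 reference named in the labels. The submitters' processing notes also name Seurat 4.3.0, with no role stated. Cells with at least 500 genes, 1000 UMIs and at most 10% mitochondrial UMIs were kept, without doublet removal. The 8 genes, the lists and the comparisons were chosen with earlier results of these data known.

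Each myeloid cell was given the class whose markers had the highest mean z-score (log counts per 10000, at least 3 markers detected, score of at least 0.5, lead of at least 0.25), a rule set on marker genes after the counts could be read. Cells without a class but with at least 3 of 5 general macrophage markers were called other macrophage. Stromal cells were gated by at least 3 markers of a list, or at least 4 of 6 fibroblast markers. UMIs were summed per class and given as CPM with exact Poisson intervals, ratios with exact conditional binomial and shares with Clopper-Pearson intervals, all at 95%. The fold of 2 ratios between classes has a log-scale interval. Folds of 1.5, 2 and 10 are sizes, over genes with at least 20 UMIs in the 2 profiles. Shares were thinned to 2000 UMIs per cell. A count of 0 was bounded by 3 counts. Named pathway genes were the 25 with the largest fold between the end classes of the activating to inhibitory ratio (at least 2-fold, at least 50 CPM), with a few others picked once their values were known, and for each receptor the 3 genes with the highest Pearson r of log2(CPM + 10) that are no gate marker. Some of the genes these rules name are not reported here. Python 3.11.15 with scanpy 1.11.5 (clusters and Scrublet), edgeR 4.0.16 and DESeq2 1.42.0 (scaling factors only) were used. The fold and interval code and the gates were checked on simulated counts.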

Additional observations from a re-analysis of the deposited data

How the results depend on the processing

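No paired analysis was possible because each group is 1 library. The fold between the highest and lowest activating to inhibitory ratio over all classes was 6.10 and stayed within its 95% interval (5.22 to 7.12) with the looser and stricter cell filters, a wider gate margin, and without cells that held S100a8, S100a9 or Col1a1 UMIs. It was 11.6 after removal of the barcodes with the highest Scrublet scores, 25.5 with Leiden clusters in place of gates, 20.4 with thinned cells, 7.87 with the mean of per-cell CPM, and 8.16, 4.96 and 16.3 with Fcgr1, Fcgr3 and Fcgr4 alone over Fcgr2b. For the C5ar1 to C3ar1 ratio the fold was 5.28, and it was 8.51 after the Scrublet removal, 11.4 with clusters and 7.68 with the mean of per-cell CPM. Without non-macrophage-gated cells that held 3 or more general macrophage markers, a setting chosen after seeing the data, the folds were 25.2 and 19.8. Among classes of at least 50 cells and 20 Fcgr2b UMIs, Ly6c2 monocytes had the highest Fc ratio in all these settings but Fcgr4 alone. The lowest class was osteoclast, migratory dendritic or NK. Not ranked was the NK cluster, with 43 cells and 0 CPM of Fcgr2b. With clusters, Il1b macrophages had a ratio of 2.41 in place of 1.33, in a cluster with the monocyte gate markers Plac8 and Vcan among its leading genes. The count of class and receptor pairs at least 2-fold from the other cells was 50, and 40 to 54 under the alternatives. The Fcgrt ratio of day 5 to day 0 lay between 0.947 and 0.960 throughout. The share of cells with a Fcgr2b UMI was 34.3% thinned and 63.6% unthinned. Scrublet itself marked 0, 2 and 0 cells of the myeloid, day 0 and day 5 libraries, so its scores were used as a rank only. NK values rest on 50 cells and 222690 UMIs.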
